A study of Mus musculus with 32 samples.

Results

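The genes described here are 10 antiviral effectors of the interferon response: Oas1a, Oas2, Oas3, Oasl1, Oasl2, Ifit1, Ifit3, Isg15, Rsad2 and Ifi44. They were chosen by symbol, with earlier results of these data known, and all 10 had a row among the 12451 genes of the deposited counts. Their mRNA was measured in YUMM3.3 cells, a mouse melanoma cell line, a single line grown without immune or stromal cells. The 32 samples were wells that formed 8 groups of 4: untreated cells, cells given 40 ng/ml Activin-A, cells given 20 ng/ml IFN-γ, and cells given both, each after 4 hrs and after 12 hrs. Activin-A is a secreted factor of the TGF-β family, and IFN-γ is the interferon made by T cells and NK cells. The question was how far each gene was raised by IFN-γ, and how far its level differed when Activin-A was added. All wells came from 1 line, and nothing says that they came from separate cultures before seeding, so that p-values measure the spread between wells.

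Antiviral effectors are proteins that block steps of viral infection, and interferons raise their mRNA together. Type I interferons act mainly on genes with an interferon-stimulated response element (ISRE). IFN-γ acts mainly on genes with a gamma-activated site (GAS), and also through IRF1, which binds ISRE-like sequences. Oas enzymes sense double-stranded RNA and make the messenger 2-5A. Ifit proteins bind foreign RNA, Isg15 is a ubiquitin-like protein that is attached to other proteins, and Rsad2 (viperin) is a radical SAM enzyme that makes a chain terminator of viral RNA synthesis. In tumor cells the same genes are read as a sign of interferon signaling.

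Promoter sequences were looked at first, because interferons act on genes through both kinds of element. A promoter of 250 bases before and 50 after the start site was found in RefSeq's GRCm38.p6 for 9 of the 10 genes, and not for Oas2. The letters GAAANNGAA, the core of an ISRE on either strand (TTCNNTTTC on the other), occurred in 7 of the 9, against 8.56% of 32851 promoters of this length. At least 2 such cores occurred in Oas1a, Oas3, Ifit1, Ifit3 and Isg15, against 0.624% of all promoters, and cores may share bases. Rsad2 and Ifi44 held 1 core each, that of Ifi44 across the start site. No core was found in this window for Oasl1 or Oasl2. The GAS core TTCNNNGAA, which reads the same on both strands, occurred once, in Oas1a, against 8.3% of all promoters. A match is a description of the letters and not evidence of binding. The stretches below, of GRCm38.p6 and in the direction of the gene, are shown as examples of the cores, from genes with several of them (Isg15, Ifit1, Ifit3, Oas3) and from a gene with 1 (Rsad2). Oasl2, which was also raised, had no core in its window. Capitals mark the ISRE cores.
Isg15, chr4:156200861-156200911, minus strand: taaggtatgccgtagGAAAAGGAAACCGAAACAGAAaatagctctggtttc
Ifit1, chr19:34640765-34640828, plus strand: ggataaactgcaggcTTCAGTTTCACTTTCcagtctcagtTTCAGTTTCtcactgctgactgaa
Ifit3, chr19:34583359-34583450, plus strand: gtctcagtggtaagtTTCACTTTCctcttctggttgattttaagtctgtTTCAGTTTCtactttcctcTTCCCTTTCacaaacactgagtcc
Oas3, chr5:120777705-120777749, minus strand: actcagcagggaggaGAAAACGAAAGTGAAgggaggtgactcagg
Rsad2, chr12:26456548-26456586, minus strand: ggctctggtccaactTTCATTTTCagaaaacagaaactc

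**Figure D1:**
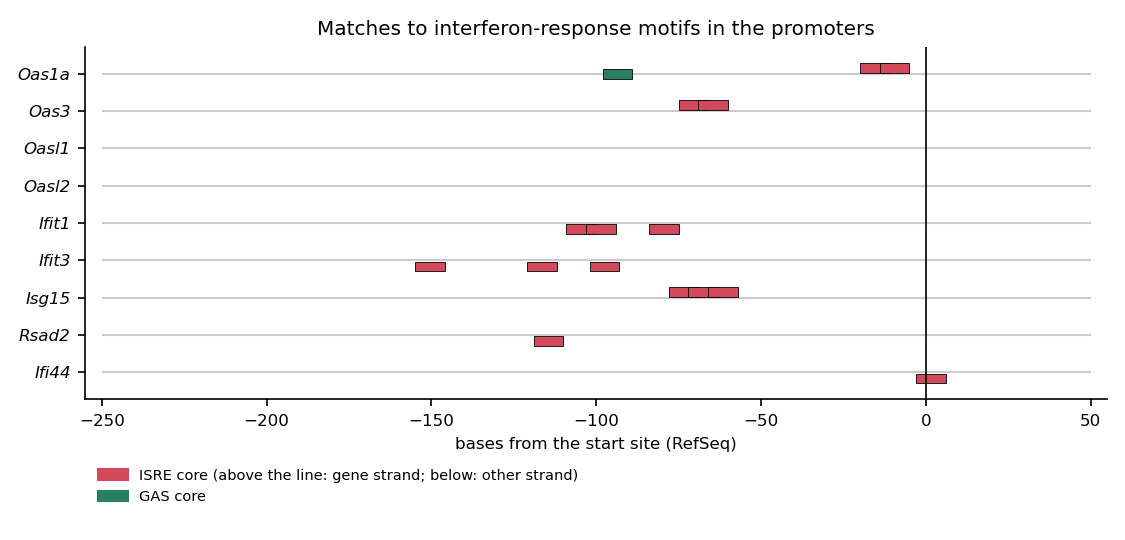
Position of each match to an ISRE core (red) or GAS core (green) in the promoters of 9 genes, in bases from the RefSeq start site. Boxes above a line are on the gene's strand and boxes below it on the other. The cores of Oas3, Ifit1, Ifit3, Isg15 and Rsad2 start between 155 and 66 bases before the start site, and the lines of Oasl1 and Oasl2 are empty.

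Total counts per sample ranged from 654539 to 1455074, at which 3 counts, taken as the floor of detection, correspond to 1.97 to 4.56 CPM, counts scaled to the TMM-normalized total of the sample. This floor covers counting error only. All 7 melanocyte lineage markers were found, with a summed level of 319 to 448 CPM in every sample. The table listed no keratinocyte or endothelial marker, although the labels give the tissue as skin, and 2 of 4 leukocyte markers (Ptprc and Cd68) summed to at most 15.2 CPM. Of 3 fibroblast markers 2 (Pdgfra and Dcn) were listed, with a summed level of 5.79 to 24.3 CPM. The 5 Activin-A targets on a list used to check the labels were all higher with Activin-A at 4 hrs, against 1.05% of genes tested. At 12 hrs 4 of 5 were higher, against 1.25%, and Smad7 did not pass (adjusted p = 0.0547 by edgeR). Replicate 1 of Activin-A at 4 hrs stood apart from the rest of its group, with a difference of 2.53 to 3.03 times the sampling noise per gene, against 1.16 to 1.56 for all other pairs of wells. No interferon gene on the list of 5 had a row. Levels rest on 3′ counts, and are compared between groups for a gene, not between genes. In bulk samples, fewer cells with the mRNA and less of it per cell cannot be told apart.

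IFN-γ raised nearly all of these genes. At 4 hrs, 8 of 10 were higher with IFN-γ than in untreated cells, against 4.29% of 9137 genes tested, and Oasl1 and Rsad2 were not. At 12 hrs all 10 were higher, against 6.43% of 8971 genes, and DESeq2 called 7, without Oas1a, Oasl1 and Rsad2. These calls are those of edgeR's quasi-likelihood test at a Benjamini-Hochberg adjusted p under 0.05 over all genes. The median log2 fold change of the 10 was 1.85 at 4 hrs and 2.24 at 12 hrs, where the median of all genes tested was -0.01 at both times. Every well with IFN-γ lay above every untreated well for 8 genes at 4 hrs, against 6.04% of genes tested, and for 10 genes at 12 hrs, against 7.87%.

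With Activin-A added to IFN-γ, these genes showed no called difference at 4 hrs, and 5 of them were lower at 12 hrs. At 4 hrs, 0 of 10 genes were lower with both factors than with IFN-γ alone by edgeR, against 0.252% of genes tested. DESeq2 also called 0, and only Rsad2 had an unadjusted p under 0.05. At 12 hrs the 5 lower genes were Oas3, Oasl2, Ifit3, Isg15 and Ifi44, 5 of 10 against 0.568% of genes tested. DESeq2 called 3 of them, Oasl2, Ifit3 and Ifi44, and gave 5 of the 10 genes no adjusted p. All 10 log2 fold changes were negative at 12 hrs, with a median of -0.63 and a range of -0.87 to -0.29, and at 4 hrs the median was -0.01. All wells with both factors lay below all wells with IFN-γ for 8 genes at 12 hrs, against 3.32% of genes, and for 0 at 4 hrs, against 2.9%. The comparisons of IFN-γ with untreated cells and of both factors with IFN-γ share the 4 IFN-γ wells of each time, so that their values are given side by side and not set in relation to each other.

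**Figure D2:**
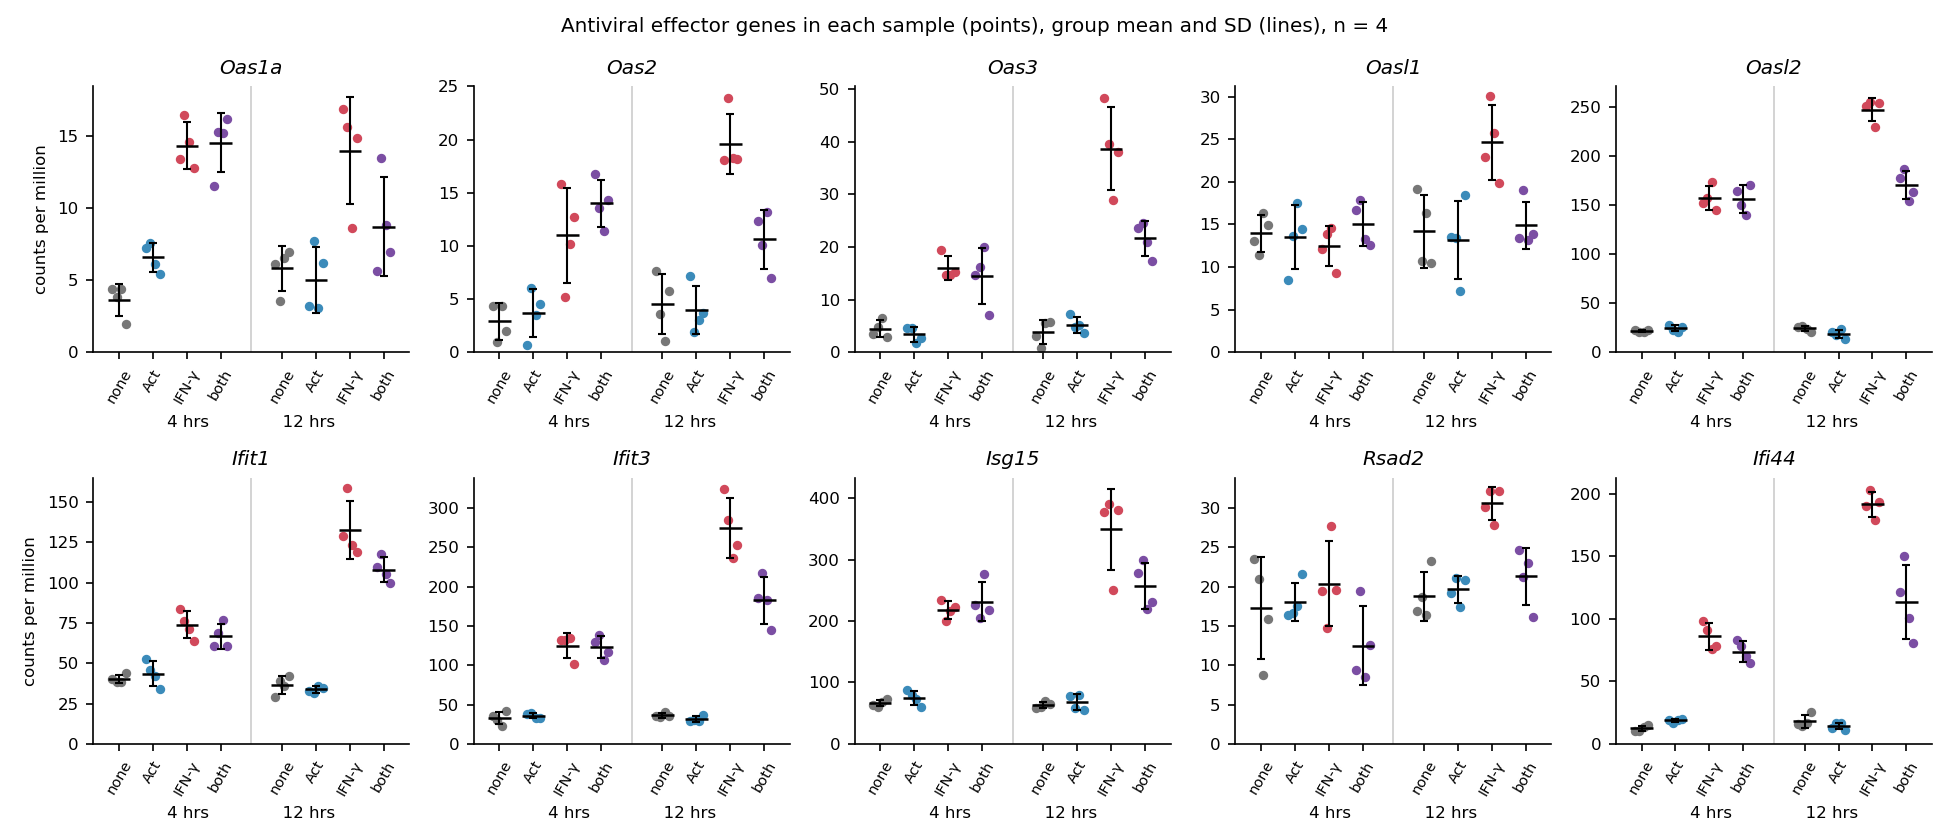
CPM of each antiviral effector gene in every well (points), with the group mean and SD (black lines, n = 4), for untreated cells (none), Activin-A (Act), IFN-γ and both factors at 4 and 12 hrs. At 12 hrs the wells with both factors lie under the IFN-γ wells for 8 of the 10 genes, and the wells with Activin-A alone lie near the untreated wells.

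Of Oas1a, Oas2 and Oas3, Oas3 had the largest rise with IFN-γ at 12 hrs, over untreated wells of 1 to 5 counts, and edgeR called only Oas3 lower with both factors. Oas3, the long Oas enzyme, had 3.07, 0.890, 5.47 and 5.81 CPM in the untreated wells at 12 hrs, 48.2, 39.4, 29.0 and 38.0 CPM with IFN-γ, and 23.6, 24.6, 20.9 and 17.4 CPM with both factors. The IFN-γ wells were all above the wells with both factors, and both groups were far above the untreated wells. The log2 fold change was 3.38 ± 0.31 (SE) with IFN-γ by edgeR (adjusted p = 8.24e-17). With both factors against IFN-γ it was -0.82 ± 0.22 (adjusted p = 0.0298 by edgeR). This last call rested on few counts, 15 to 46 a well in these groups, and was lost when any of 6 of the 8 wells was left out, with an adjusted p of 0.0537 to 0.177. These were replicates 1, 2 and 4 of IFN-γ and replicates 1, 3 and 4 of both factors, and DESeq2 gave Oas3 no adjusted p there.

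Oas2, a medium Oas enzyme, had 18.1, 23.9, 18.2 and 18.2 CPM with IFN-γ at 12 hrs and 12.3, 10.1, 13.2 and 6.94 CPM with both factors. The groups did not overlap. The fold change between them, -0.87 ± 0.31 on the log2 scale, did not pass the test (adjusted p = 0.209 by edgeR), at 6 to 23 counts a well. Untreated wells had 7.68, 3.56, 1.09 and 5.81 CPM at 12 hrs, so that the rise with IFN-γ was 2.01 ± 0.35 (adjusted p = 3.82e-06 by edgeR). At 4 hrs the rise was 1.85 ± 0.47 (adjusted p = 0.00623 by edgeR), and the call was lost without replicate 2 of the untreated wells (adjusted p = 0.0511).

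Oas1a, a small Oas enzyme, was raised by IFN-γ at both times. Its mean was 14.3 ± 1.63 CPM (SD, n = 4) at 4 hrs and 14.0 ± 3.69 CPM at 12 hrs, from 3.63 ± 1.13 and 5.81 ± 1.54 CPM in untreated cells. Both rises passed the test, with log2 fold changes of 1.95 ± 0.37 and 1.27 ± 0.36 (adjusted p = 8.03e-05 and 0.0106 by edgeR), although DESeq2 did not call that at 12 hrs (adjusted p = 0.0934), nor did edgeR without replicate 2 of the untreated wells (adjusted p = 0.0699). At 12 hrs the wells had 16.9, 15.6, 8.58 and 14.9 CPM with IFN-γ and 5.61, 13.4, 8.79 and 6.94 CPM with both factors. The groups overlapped, and the difference of -0.67 ± 0.34 did not pass (adjusted p = 0.496 by edgeR). The counts of Oas1a are uncertain, because 226 of the 441 words of 60 bases in the last 500 bases of its transcript also occur in Oas1g, and how the authors counted shared reads is not given in the sources used here.

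The 2 Oas-like genes parted ways. Oasl2, a 2-5A synthetase with ubiquitin-like domains, had 22.7, 21.02, 20.7 and 22.8 CPM in untreated wells at 4 hrs, 152, 157, 174 and 145 CPM with IFN-γ, and 164, 150, 139 and 170 CPM with both factors. IFN-γ with and without Activin-A overlapped, with neither range inside the other. At 12 hrs Oasl2 had 251, 254, 230 and 253 CPM with IFN-γ and 177, 187, 154 and 163 CPM with both factors, and the groups were apart. The log2 fold change with IFN-γ was 2.84 ± 0.14 at 4 hrs and 3.33 ± 0.12 at 12 hrs (adjusted p = 4.75e-25 and 3.11e-45 by edgeR). With both factors against IFN-γ, it was -0.54 ± 0.09 at 12 hrs (adjusted p = 5.2e-06 by edgeR), and within 0.01 of 0 at 4 hrs (adjusted p = 0.999). Each of the 8 fits that left out 1 well kept the call at 12 hrs.

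Oasl1, which is known to limit the translation of Irf7, was not raised at 4 hrs. It had 12.2, 13.9, 14.6 and 9.36 CPM with IFN-γ against 13.1, 11.5, 16.4 and 14.9 CPM in untreated wells. At 12 hrs it had 22.9, 30.1, 25.7 and 19.8 CPM with IFN-γ against 19.2, 10.7, 16.4 and 10.5 CPM, a small rise with no overlap of 0.75 ± 0.25 on the log2 scale (adjusted p = 0.0411 by edgeR). With both factors the 12 hrs wells had 13.5, 19.0, 13.2 and 13.9 CPM, close to the untreated wells, and the difference from IFN-γ of -0.71 ± 0.26 did not pass (adjusted p = 0.229 by edgeR). The call of the rise was lost without any of 5 wells, replicates 2 and 4 of the untreated cells and replicates 1, 2 and 3 of IFN-γ (adjusted p = 0.0532 to 0.188), and was not made by DESeq2 (adjusted p = 0.215).

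Of the Ifit genes, Ifit3 was lowered by co-treatment and Ifit1 was not called. Ifit3 had 324, 284, 237 and 253 CPM with IFN-γ at 12 hrs and 185, 217, 183 and 145 CPM with both factors. Untreated wells had 35.3, 33.8, 40.4 and 34.8 CPM. The groups did not overlap, and co-treated wells stayed well above untreated ones. The log2 fold change was 2.92 ± 0.12 with IFN-γ, and -0.58 ± 0.09 with both factors against IFN-γ (adjusted p = 1.25e-41 and 1.84e-06 by edgeR). At 4 hrs the means were 125 ± 15.4 CPM (SD, n = 4) with IFN-γ and 123 ± 13.7 CPM with both factors. Ifit3 shares 57 of 441 such words with its neighbour copy Ifit3b, so that part of its reads is uncertain. The counts of Ifit3b were lower, and its values were 2.60 ± 0.22 with IFN-γ and -0.53 ± 0.16 with both factors (adjusted p = 5.53e-19 and 0.107 by edgeR).

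Ifit1, which binds viral RNA caps that lack 2′-O methylation, had 129, 159, 123 and 119 CPM with IFN-γ at 12 hrs and 110, 118, 105 and 99.5 CPM with both factors. The groups were adjacent and did not overlap. The difference was the smallest of the 10 genes, at -0.29 ± 0.11 (adjusted p = 0.256 by edgeR). The rise with IFN-γ was 0.88 ± 0.15 at 4 hrs and 1.87 ± 0.13 at 12 hrs (adjusted p = 7.73e-06 and 1.07e-23 by edgeR).

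Isg15 had 59.1, 59.6, 70.0 and 65.0 CPM in the untreated wells at 12 hrs. With IFN-γ it had 377, 390, 251 and 381 CPM, and with both factors 278, 299, 220 and 230 CPM. The groups overlapped through replicate 3 of IFN-γ, which at 251 CPM was below 2 of the co-treated wells. The log2 fold change was 2.47 ± 0.11 with IFN-γ and -0.45 ± 0.09 with both factors against IFN-γ (adjusted p = 8.5e-39 and 0.000321 by edgeR). edgeR kept the second call without each of the 8 wells (adjusted p up to 0.0172), and DESeq2 did not call it (adjusted p = 0.217).

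Rsad2 responded weakly. At 4 hrs it had 19.5, 14.7, 27.7 and 19.6 CPM with IFN-γ and 23.6, 21.02, 8.72 and 15.9 CPM in untreated wells, with partial overlap. With both factors at 4 hrs it had 9.42, 19.5, 8.53 and 12.5 CPM, which overlapped the IFN-γ wells. This difference of -0.62 ± 0.28 did not pass (adjusted p = 0.459 by edgeR), and was as large as that at 12 hrs. At 12 hrs it had 30.1, 32.2, 27.9 and 32.2 CPM with IFN-γ against 16.9, 18.7, 16.4 and 23.2 CPM, a rise of 0.72 ± 0.21 on the log2 scale (adjusted p = 0.0141 by edgeR). The rise was not called without replicate 1 of the untreated wells or replicate 4 of IFN-γ (adjusted p = 0.063 and 0.0535), nor by DESeq2 (adjusted p = 0.123). Both factors gave 24.7, 21.3, 23.1 and 16.2 CPM at 12 hrs, below every IFN-γ well, and the difference of -0.52 ± 0.21 did not pass (adjusted p = 0.325 by edgeR). Cmpk2, the gene next to Rsad2 whose enzyme supplies its nucleotide substrate, rose by more with IFN-γ at 12 hrs (3.43 ± 0.35, adjusted p = 1.98e-14 by edgeR), and its value with both factors against IFN-γ was -0.70 ± 0.24 (adjusted p = 0.176).

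Ifi44, a cytoplasmic protein raised by interferons, had the lowest adjusted p of the 10 for the reduction at 12 hrs. It had 190, 203, 179 and 193 CPM with IFN-γ at 12 hrs and 121, 150, 101 and 81.0 CPM with both factors, from 16.1, 14.2, 16.4 and 25.5 CPM in untreated wells. No co-treated well reached the IFN-γ wells, and none came near the untreated ones. The log2 fold change was 3.43 ± 0.15 with IFN-γ and -0.76 ± 0.11 with both factors against IFN-γ (adjusted p = 9.94e-39 and 1.62e-07 by edgeR). At 4 hrs Ifi44 had 98.5, 90.9, 75.9 and 78.3 CPM with IFN-γ and 82.7, 78.0, 70.2 and 64.5 CPM with both factors, an overlap with a difference of -0.23 ± 0.12 that did not pass (adjusted p = 0.596 by edgeR).

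**Figure D3:**
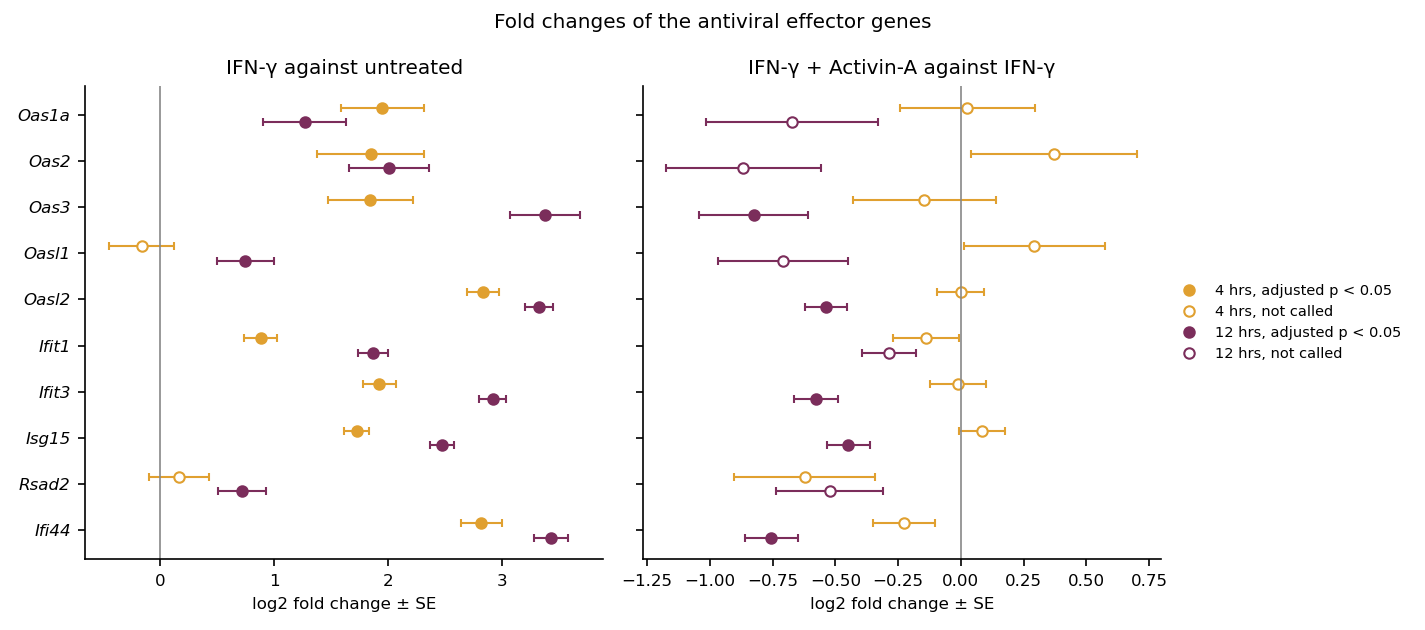
Log2 fold change ± SE of each gene with IFN-γ against untreated cells (left) and with both factors against IFN-γ (right) at 4 hrs (orange) and 12 hrs (purple). Filled points passed an adjusted p of 0.05 by edgeR. On the right all 12 hrs points lie below 0, of which 5 passed, and no 4 hrs point passed.

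With Activin-A alone no gene of the 10 passed the test. edgeR called 0 of 10 at 4 hrs, against 1.64% of genes tested in either direction, and 0 of 10 at 12 hrs, against 2.41%. DESeq2 called 0 at both times, and at 12 hrs gave 4 of the 10 no adjusted p. At an unadjusted p under 0.05 edgeR had Ifi44 at 4 hrs and 0 genes at 12 hrs. Ifi44 had 19.0, 16.7, 19.3 and 19.8 CPM with Activin-A at 4 hrs and 10.5, 10.5, 13.1 and 14.9 CPM in untreated wells, without overlap, a difference of 0.64 ± 0.24 (adjusted p = 0.228 by edgeR), and at 12 hrs the value was -0.31 ± 0.27 (adjusted p = 0.727). Oas1a had 7.21, 7.60, 6.13 and 5.40 CPM with Activin-A at 4 hrs and 4.36, 3.82, 4.36 and 1.98 CPM in untreated wells, also without overlap, a difference of 0.83 ± 0.42 (adjusted p = 0.468 by edgeR) at 2 to 11 counts a well. The share of all genes without overlap was not counted for Activin-A alone. The count of called genes remained at 0 without replicate 1 of Activin-A at 4 hrs.

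Cells with both factors still had raised levels of most of these genes when set against untreated cells. At 4 hrs 8 of 10 genes were higher with both factors, against 5.08% of genes tested. At 12 hrs 6 were higher, against 6.14%: Oas3, Oasl2, Ifit1, Ifit3, Isg15 and Ifi44. The log2 fold changes of these 6 ran from 1.58 ± 0.14 for Ifit1 to 2.79 ± 0.13 for Oasl2. The other 4 had 0.59 ± 0.41 (Oas1a), 1.15 ± 0.41 (Oas2), 0.04 ± 0.29 (Oasl1) and 0.20 ± 0.23 (Rsad2), with adjusted p-values of 0.06 to 0.969 by edgeR. Oas2 passed when replicate 1 of the untreated wells or replicate 4 of both factors was left out (adjusted p = 0.0229 and 0.0406).

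Whether Activin-A acted differently in the presence of IFN-γ was tested by the interaction, the effect of Activin-A with IFN-γ minus its effect without. edgeR and DESeq2 each called 0 of 10 genes at 4 hrs, against 0% of genes tested, and 0 of 10 at 12 hrs, against 0.0111%. At an unadjusted p under 0.05 edgeR had Ifi44 at 4 hrs and Oas3 and Isg15 at 12 hrs. All 10 interaction values were negative at 12 hrs, with a median of -0.50, and 7 of 10 at 4 hrs. Isg15 had -0.57 ± 0.17 at 12 hrs (adjusted p = 0.257 by edgeR), and without replicate 3 of IFN-γ at 12 hrs it had -0.69 and passed (adjusted p = 0.0428). So the reduction under IFN-γ was not shown to differ from the effect of Activin-A without it.

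The rise with IFN-γ was larger at 12 hrs than at 4 hrs for 3 of the 10 genes by a test of the difference, against 0.439% of 9332 genes. These were Ifit1, with a difference of 1.00 ± 0.20 on the log2 scale, Ifit3, with 1.01 ± 0.21, and Isg15, with 0.76 ± 0.18 (adjusted p = 0.00156, 0.00338 and 0.0163 by edgeR). Oas3 had 1.55 ± 0.56 and did not pass (adjusted p = 0.385). Ifit3 and Isg15 lost the call without replicate 4 of the untreated wells at 4 hrs (adjusted p = 0.0644 and 0.0901). Isg15 also lost it without replicate 2 of IFN-γ at 4 hrs, replicate 1 or 2 of the untreated wells at 12 hrs or replicate 2 of IFN-γ at 12 hrs (adjusted p = 0.0507 to 0.0711).

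The effect of Activin-A under IFN-γ was lower at 12 hrs than at 4 hrs for 1 gene, against 0.0536% of genes. This was Oasl2, with -0.54 ± 0.13 (adjusted p = 0.0483 by edgeR). The difference was negative for 9 of 10 genes, and Rsad2, at 0.10 ± 0.34, was the exception. The call of Oasl2 sat at the threshold. It was not made by DESeq2, and dropping a single well ended it for 13 of 16 wells (adjusted p = 0.0508 to 0.19). Without replicate 2 of both factors at 12 hrs, Ifit3, Isg15 and Ifi44 passed as well (adjusted p = 0.0256, 0.0269 and 0.0491), and without replicate 3 of IFN-γ at 12 hrs Isg15 did (adjusted p = 0.00409).

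The genes that attach or remove Isg15 and the relatives of these effectors were taken from lists. All 5 genes of the Isg15 cycle were higher with IFN-γ at both times, against 4.29% of all genes at 4 hrs and 6.43% at 12 hrs. At 12 hrs Ube2l6, its conjugating enzyme, had 2.98 ± 0.11, and Trim25, a ligase, 1.03 ± 0.15. With both factors at 12 hrs edgeR and DESeq2 called 0 of the 5 lower, against 0.568% of all genes by edgeR. DESeq2 gave 2 of them no adjusted p, and Trim25 and Usp18 had an unadjusted p under 0.05 by edgeR. The values against IFN-γ alone ran from -0.39 ± 0.14 (Usp18, the protease that removes Isg15, adjusted p = 0.215) to -0.12 ± 0.23 (Herc6, a ligase, adjusted p = 0.928). Ifit2, which partners with Ifit3, was higher with IFN-γ at 1.359 ± 0.19, and had -0.52 ± 0.17 with both factors (adjusted p = 3.08e-09 and 0.135 by edgeR).

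Among 15 tested genes of a list of other antiviral effectors, 13 were higher with IFN-γ at 12 hrs, against 6.43% of all genes. Ifitm3, a block to viral entry, was the 1 of 15 lower with both factors, against 0.568%, at -0.30 ± 0.05 (adjusted p = 5.43e-05 by edgeR). At an unadjusted p under 0.05, 7 of the 15 were lower by edgeR, against 516 of 8971 genes. Among them Helz2, at -0.43 ± 0.20, and Ifi35, at -0.37 ± 0.11, did not pass (adjusted p = 0.419 and 0.068 by edgeR). Xaf1 had the highest value with IFN-γ, 3.21 ± 0.13, and -0.20 ± 0.09 with both factors (adjusted p = 1.38e-40 and 0.419). Of 7 tested genes on a list of nucleic acid sensors and their adaptor Mavs, Ifih1, with -0.62 ± 0.16, and Rigi, with -0.65 ± 0.14, were lower with both factors at 12 hrs, against the same 0.568% (adjusted p = 0.0282 and 0.00312 by edgeR). DESeq2 called Rigi (adjusted p = 0.0438) and gave Ifih1 no adjusted p. Dhx58, at -0.55 ± 0.18, and Zbp1, at -0.28 ± 0.09, had an unadjusted p under 0.05 and did not pass (adjusted p = 0.127 and 0.11 by edgeR). Of the transcription factors that bind interferon elements, Irf7 was lower, at -0.64 ± 0.14 (adjusted p = 0.00168 by edgeR). Stat2, at 0.06 ± 0.12, Irf9, at -0.19 ± 0.11, and Irf1, at 0.02 ± 0.06, did not pass (adjusted p = 0.601 to 0.973 by edgeR), and all 3 were higher with IFN-γ, at 1.97 to 3.96.

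As a background, 384 other genes were higher with IFN-γ at 4 hrs, and 376 of these were tested at 12 hrs. With both factors against IFN-γ at 12 hrs, 17 of the 376 were lower (4.52%) and 3 higher, and their median log2 fold change was -0.09, with quartiles of -0.23 and 0.02. The 10 antiviral effectors, of which Oasl1 and Rsad2 were not higher at 4 hrs, had a median of -0.63. Of 184 other genes raised at 4 hrs by a log2 fold change over 1 and tested at 12 hrs, 13 were lower (7.07%) and 0 higher by edgeR. Their median was -0.13, with a lower quartile of -0.29. Values of genes picked by their rise at 12 hrs are not given, because the same IFN-γ wells enter both comparisons. Of 12 tested genes on a list of classical IFN-γ targets, 1 was lower at 12 hrs, Cxcl10, a chemokine, at -0.65 ± 0.10 (adjusted p = 5.21e-06 by edgeR), which DESeq2 did not call (adjusted p = 0.0683), and the median of the 12 was -0.08. Gbp2, a GTPase and the target with the highest value with IFN-γ (6.46 ± 0.07), had -0.09 ± 0.05 with both factors (adjusted p = 0.48 by edgeR). These are counts and medians of lists and not a test between them. The 10 genes and the lists were chosen with earlier results of these data known.

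**Figure D4:**
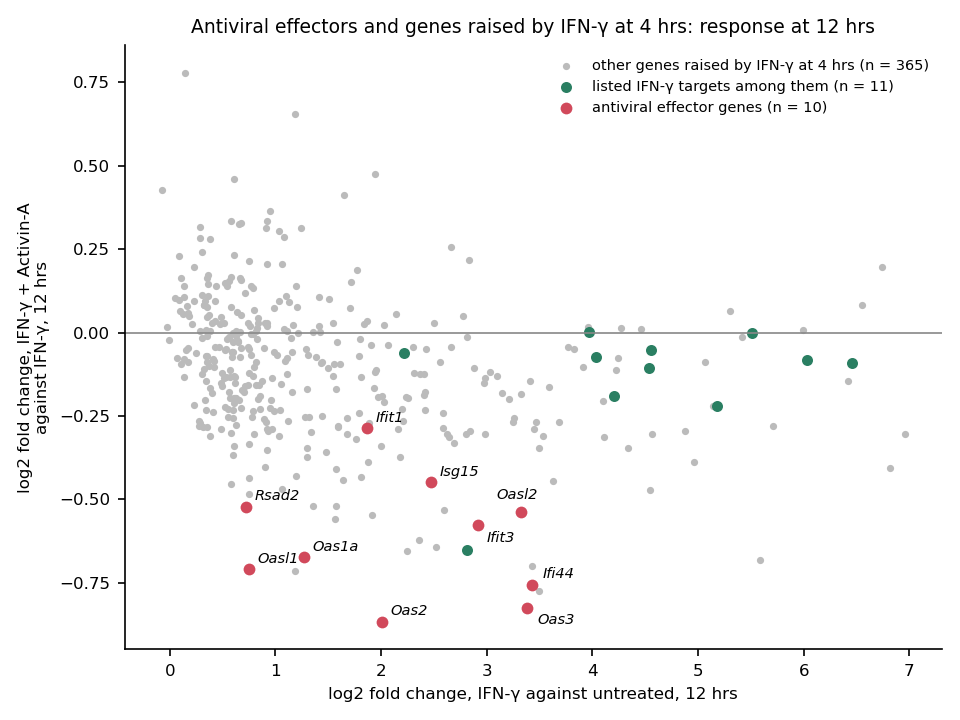
Log2 fold change at 12 hrs with IFN-γ against untreated cells (horizontal) and with both factors against IFN-γ (vertical) for the 10 antiviral effector genes (red), 11 listed IFN-γ targets (green) and 365 other genes (grey), the last 2 kinds being higher with IFN-γ at 4 hrs. The axes share the IFN-γ wells. The red points lie between -0.87 and -0.29 on the vertical axis, and most green points lie close to 0.

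The genes whose pattern was most like that of the 10 were Usp18, Irf7, Enah, Mvp and Ifit3b, with Pearson's r of 0.988, 0.987, 0.984, 0.983 and 0.980 over the 8 group means of log2 CPM, among 772 genes with a span of at least 1. By Spearman's rho, Irf7 ranked 27 and Ifit3b 182 of these genes. The points share wells and treatments, and r is a description. Irf7, a transcription factor of the interferon response, had 115 ± 23.1 CPM (SD, n = 4) with IFN-γ at 12 hrs and 73.8 ± 16.8 CPM with both factors. Mvp, the major vault protein, had 105 ± 3.68 and 94.6 ± 12.9 CPM, a difference of -0.15 ± 0.12 (SE) on the log2 scale. Unlike Irf7, neither Mvp nor Usp18, Enah or Ifit3b was called lower with both factors at 12 hrs (adjusted p = 0.107 to 0.755 by edgeR). Within the 10, Ifit3, Ifi44 and Oas3 followed the mean of the others most closely, with r of 0.986, 0.986 and 0.977, and Rsad2 least, with 0.414.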

How the data were processed

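mRNA of YUMM3.3 cells was measured by BRB-seq, in which 3′ ends are barcoded by sample and sequenced as a pool. The authors deposited raw read counts per gene, without normalization. The submitters' processing notes name STAR 2.7.10b, featureCounts, DESeq2 1.36.0 and GRCm39. The annotation, strand setting, UMI handling and treatment of reads shared between genes are not given in the sources used here. Identifiers were matched to symbols with GENCODE M21 (12437 of 12451), and promoters came from RefSeq's GRCm38.p6, whose coordinates are not those of the counts.

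In R 4.3.3, genes were filtered by filterByExpr, normalized by TMM and tested with edgeR 4.0.16 (glmQLFit, glmQLFTest) over the 16 samples of a time, or 32 for contrasts between times, with Benjamini-Hochberg adjustment over all genes. CPM are TMM-normalized over 32 samples. log2 CPM used a prior count of 2. Alternatives were DESeq2 1.42.0, RLE normalization, no filter, the replicate number as a block, other sets of samples, an adjusted p under 0.01 and each sample left out. Fits were tested on simulated data.

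All 10 members were named. Of listed genes, those with the highest and lowest values and those a result turns on were named, narrowed after values were seen. Members and lists were chosen with earlier results of these data known. Some listed genes are not reported here.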

Additional observations from a re-analysis of the deposited data

Results flagged for a closer look

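In 6 of 80 combinations of gene and group, 1 well lay far from the other 3 by Dixon's criterion, of which chance gives about 1 in 20. With IFN-γ at 12 hrs these were replicate 2 for Oas2, at 23.9 CPM with the next well at 18.2 CPM, and replicate 3 both for Oasl2, at 230 CPM (next 251 CPM), and for Isg15, at 251 CPM (next 377 CPM). With IFN-γ at 4 hrs they were replicate 1 for Oas3, at 19.5 CPM (next 15.3 CPM), and replicate 4 for Ifit3, at 102 CPM (next 132 CPM). With both factors at 12 hrs it was replicate 2 for Oasl1, at 19.0 CPM (next 13.9 CPM).

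The rise with IFN-γ differed between 12 and 4 hrs for Ifit1, by 1.00, for Ifit3, by 1.01, and for Isg15, by 0.76 on the log2 scale. The effect of Activin-A under IFN-γ differed for Oasl2, at -0.54. Each was called by a test of the difference with edgeR over all 32 samples. Ifit3, Isg15 and Oasl2 lost the call when certain single wells were left out, as given above.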

How the results depend on the processing

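The count of genes higher with IFN-γ at 12 hrs, 10 of 10, was 7 with DESeq2 and 8 to 10 with each well left out. The count of genes lower with both factors at 12 hrs, 5 of 10, was 3 with DESeq2, which gave no adjusted p to 5 of the 10, and 4 to 5 with each well left out. Over all genes the count was 51, and 33 with DESeq2, 27 at an adjusted p under 0.01 and 32 to 50 with each well left out. At 4 hrs the count over all genes was 23, and 10 with DESeq2, 10 at an adjusted p under 0.01, 47 with only the samples compared in the fit and 12 to 21 with each well left out. Lower with time under Activin-A and IFN-γ was 1 gene, and 0 with DESeq2, at an adjusted p under 0.01, without the filter and with the replicate block, and 0 to 4 with each well left out. Each well left out gave 1 to 3 for the genes with a larger rise at 12 hrs and 0 to 1 for the interaction at 12 hrs. The cause of these changes was not tested. The replicate block kept the count at 12 hrs at 5, and deviations of same-numbered wells had an r of -0.09 to 0.04 over 48 pairs. Most deviations were close to sampling noise, where r would be near 0 also under a small shared effect.

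Values near 0 at 4 hrs with both factors against IFN-γ changed sign. Oasl2 had 0.0021 with RLE normalization, 0.0088 without the filter, 0.0024 with all 32 samples and 0.0061 with only the samples compared. With each well left out Oasl2 ran from -0.046 to 0.053, Oas1a from -0.038 to 0.12, Oas3 from -0.33 to 0.085, Ifit3 from -0.11 to 0.055 and Isg15 from -0.0057 to 0.14. Rsad2 with IFN-γ at 4 hrs ran from -0.041 to 0.35. By Spearman's correlation 3 of the 5 genes most like the 10 were shared, Enah in a tie at rank 5. Oas1a, Oas2, Oas3, Oasl1 and Rsad2 had at most 46 counts a well with IFN-γ or both factors at 12 hrs, and the other 5 genes at least 70. The part of depth in the calls was not tested.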
